A study of Mus musculus with 25 samples.

Results

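The comparison described here is the shift of the subset ratio between days: the difference between Ly6Clow and Ly6Chigh macrophages of injured mouse muscle at day 4 minus the same difference at day 2. It uses 10 of the 25 samples of the series, and it covers the 12047 of 38087 listed genes that reached 50 normalised counts in at least 1 of the 4 groups. All animals were adult C57BL/6J males, 2 to 4 months old, whose tibialis anterior, a muscle of the shin, had been injured by an injection of cardiotoxin, a myotoxic peptide of cobra venom. Leukocytes were enriched magnetically by the pan-leukocyte antigen CD45 and sorted by flow cytometry. The groups were Ly6Clow F4/80high macrophages at day 4 (2 samples), Ly6Chigh F4/80low macrophages at day 4 (2 samples), Ly6Clow F4/80high macrophages at day 2 (3 samples) and Ly6Chigh F4/80low macrophages at day 2 (3 samples). Poly-A RNA was sequenced, and the deposited value of a gene is 1 mean per group, so no value below has an SD and no difference could be tested against the spread between samples. The samples of the 2 days are separate sorts, so a change between days is a difference between populations, not a change followed in the same cells.

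Ly6Chigh macrophages of injured muscle derive from inflammatory blood monocytes, which enter the damaged tissue early, take up debris and make inflammatory cytokines. Ly6Clow macrophages appear later, largely from the Ly6Chigh cells, are known to proliferate in the tissue, and make growth factors that act on muscle stem cells and matrix. A subset ratio at 1 time shows how far apart the populations are, and its shift shows which parts of that distance closed, opened or stayed.

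The subset ratio was taken as the log2 of Ly6Clow over Ly6Chigh normalised counts after adding 10 to each. A positive shift therefore means that the ratio moved toward Ly6Clow cells at day 4, and a negative shift that it moved toward Ly6Chigh cells. A gene is called shifted where the ratio moved at least 2-fold, a log2 shift of 1. The median shift over all 12047 genes was -0.004 and the middle 50% of genes lay between -0.25 and 0.23. Of these genes 263 (2.18%) were shifted higher and 486 (4.03%) lower, which is 749 genes (6.22%) in all. The excess of lower shifts lay among genes of low level, since at a minimum of 200 normalised counts 189 genes were shifted higher and 169 lower. Of the genes shifted lower, 193 reached the minimum in Ly6Chigh cells at day 4 and in no other group, and the minimum selects a lower shift for such genes (193 of 313 were shifted lower). The genes nearest to the threshold were Sirpb1a, Pydc3 and Baiap2 inside 1, Sco2, Tnnt3 and Ero1l outside it, Il12rb1, Klra17 and Nubpl inside -1, and Pecam1, Cks2 and Selm outside it.

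Motif sequences of cell cycle, interferon and hypoxia promoters are shown first, as background to gene lists described below. Whether the motifs had a part in any shift was not tested. Each sequence is from RefSeq on GRCm38.p6 and runs 5′ to 3′ on the gene's strand, from 250 bases before the transcription start to 30 bases after it. Capitals mark the searched motif on either strand. The printed promoters were taken in order of the size of the shift from those that hold the motif, so each holds it by choice. E2F sites (TTTCGCGC or TTTGGCGC) bind the E2F factors that switch on DNA replication genes, and the promoters of Uhrf1 (chr17:56304063-56304342 on the plus strand) and Mcm7 (chr5:138171854-138172133 on the minus strand) each hold 1.
Uhrf1: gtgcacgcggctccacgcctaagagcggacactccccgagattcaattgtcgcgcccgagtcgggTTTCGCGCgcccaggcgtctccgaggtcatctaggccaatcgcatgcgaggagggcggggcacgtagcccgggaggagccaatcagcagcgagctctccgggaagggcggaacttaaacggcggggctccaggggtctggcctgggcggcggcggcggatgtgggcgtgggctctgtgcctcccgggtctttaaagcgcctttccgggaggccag
Mcm7: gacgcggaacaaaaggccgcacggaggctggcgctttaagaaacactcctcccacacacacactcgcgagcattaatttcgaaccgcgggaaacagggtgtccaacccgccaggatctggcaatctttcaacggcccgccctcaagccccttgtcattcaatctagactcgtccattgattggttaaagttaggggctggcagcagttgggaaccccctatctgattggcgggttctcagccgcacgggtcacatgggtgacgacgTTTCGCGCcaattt
The cell cycle homology region (TTTGAA) is an element of mitotic gene promoters, and the promoter of Top2a (chr11:99024160-99024439 on the minus strand) holds 2.
Top2a: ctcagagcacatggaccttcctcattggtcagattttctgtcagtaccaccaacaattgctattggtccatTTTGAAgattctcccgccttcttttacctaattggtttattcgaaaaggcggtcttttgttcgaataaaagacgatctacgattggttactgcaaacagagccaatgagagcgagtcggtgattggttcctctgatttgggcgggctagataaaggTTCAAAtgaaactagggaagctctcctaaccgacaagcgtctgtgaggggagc
The interferon-stimulated response element (TTTC, any 2 bases, then TTTC) binds STAT and IRF factors, and the promoter of Oas3 (chr5:120777630-120777909 on the minus strand) holds 1.
Oas3: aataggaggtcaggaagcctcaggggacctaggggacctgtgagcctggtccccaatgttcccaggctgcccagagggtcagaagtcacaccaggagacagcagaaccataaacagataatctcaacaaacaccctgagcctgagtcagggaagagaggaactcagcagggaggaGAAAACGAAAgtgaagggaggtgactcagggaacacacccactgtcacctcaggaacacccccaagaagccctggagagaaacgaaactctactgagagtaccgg
The core of the hypoxia response element (ACGTG) is bound by hypoxia-inducible factors, and the promoter of Egln3 (chr12:54203845-54204124 on the minus strand) holds 1.
Egln3: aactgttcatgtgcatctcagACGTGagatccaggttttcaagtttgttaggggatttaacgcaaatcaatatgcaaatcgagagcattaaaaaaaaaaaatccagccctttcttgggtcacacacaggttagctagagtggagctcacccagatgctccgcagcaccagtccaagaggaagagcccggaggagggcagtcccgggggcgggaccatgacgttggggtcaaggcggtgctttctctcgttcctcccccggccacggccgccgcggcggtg
Over RefSeq promoters of the DNA replication list, 31 of whose 39 genes matched, 17.9% held an E2F site, against 0.752% of all 32851 promoters and 1.47% of the 10614 promoters of analysed genes. In the mitosis list 64.9% held the cell cycle homology region, against 17.2% of all promoters and 11.5% of those of analysed genes. Among type I interferon-stimulated genes 51.7% held the interferon element, against 3.28% of all promoters and 3.20% of those of analysed genes. In the glycolysis and hypoxia list 52.5% held ACGTG, against 18.5% of all promoters and 24.85% of those of analysed genes. These shares describe letters in a window and say nothing about binding in these cells.

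Most of the genes that separated the subsets at day 2 were no longer called at day 4. A 2-fold difference between Ly6Clow and Ly6Chigh cells was found for 866 genes (7.19%) at day 4 and for 1377 (11.4%) at day 2. At day 2, 725 genes (6.02%) were at least 2-fold higher and 652 (5.41%) at least 2-fold lower in Ly6Clow than in Ly6Chigh cells, while at day 4 the counts were 357 (2.96%) higher and 509 (4.23%) lower. Of the 725 genes higher in Ly6Clow cells at day 2, 253 were still called higher at day 4, 470 were not called and 2 were called lower, with a median shift of -0.71. Of the 652 lower ones, 238 were still lower and 414 were not called, with a median shift of 0.68. Selecting genes by an extreme day 2 ratio favours a move back toward 0, since the shift contains that ratio, so these medians are a description. Across the 12047 genes the day 4 ratios had a Pearson r of 0.659 with the day 2 ratios and a slope of 0.583, a value across genes, which are not independent replicates.

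The genes shifted higher and lower came about differently in the 2 populations. Of the 263 genes shifted higher, 139 (52.9%) had risen at least 2-fold in Ly6Clow cells between days with no 2-fold fall in Ly6Chigh cells, and 78 (29.7%) had fallen in Ly6Chigh cells with no 2-fold rise in Ly6Clow cells. Of the 486 genes shifted lower, 369 (75.9%) had risen at least 2-fold in Ly6Chigh cells with no 2-fold fall in Ly6Clow cells, and 37 (7.61%) had fallen in Ly6Clow cells alone. The minimum favours a rise in Ly6Chigh cells for genes that reached it in Ly6Chigh cells at day 4 alone. Part of the 75.9% therefore follows from the minimum, and the other shares hold genes that reached it in another single group. Over all genes 8.74% were higher and 3.18% lower at day 4 in Ly6Clow cells, and 10.2% were higher and 3.64% lower in Ly6Chigh cells. The 486 genes fell into 2 main classes. In 177 a lead of Ly6Clow cells at day 2 was no longer called at day 4. Of these, 43 belong to the 2 cell cycle lists, which hold 39 analysed genes each. In 202 no call at day 2 gave way to a call for Ly6Chigh cells at day 4, and 35 of these are markers of other cell types. Without the marker genes 11968 of the 12047 analysed genes remained. The minimum favours this class for genes, markers included, that reached it in Ly6Chigh cells at day 4 alone. Genes shifted higher were mostly (146 of 263) called for Ly6Chigh cells at day 2 and not called at day 4.

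Cell cycle genes made up the largest block of pathway genes that shifted lower. In the DNA replication and G1/S list 28 of 39 genes were shifted lower and none (0) higher, with a median shift of -1.39, against -0.004 over all genes. The median ratio of the list was 0.20 at day 4 and 1.58 at day 2. In the mitosis and spindle list 22 of 39 genes were shifted lower and 1 higher, with a median shift of -1.07, and the median ratio was 0.94 at day 4 and 2.04 at day 2. Each list had 40 genes in the table, of which 1 did not reach 50 normalised counts.

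Replication genes that changed at least 2-fold between days fell in Ly6Clow cells (6 of 39) or rose in Ly6Chigh cells (14 of 39), and most members did neither. Uhrf1, which recruits the maintenance DNA methyltransferase to replicated DNA, had 154 normalised counts in Ly6Clow and 119.7 in Ly6Chigh cells at day 4, against 365 in Ly6Clow and 50.8 in Ly6Chigh cells at day 2. Cdc45, part of the replicative helicase, had 44.0 in Ly6Clow and 49.9 in Ly6Chigh cells at day 4, against 121 in Ly6Clow and 17.1 in Ly6Chigh cells at day 2. Both genes had a log2 ratio above 2 at day 2 and within 0.5 of 0 at day 4, with shifts of -2.29 and -2.42. Cdc45 reached the minimum in Ly6Clow cells at day 2 alone, and the minimum selects a lower shift for such genes. Mcm2, a subunit of the same helicase, had 359 in Ly6Clow and 349 in Ly6Chigh cells at day 4, against 1069.6 in Ly6Clow and 239.5 in Ly6Chigh cells at day 2, a shift of -2.07 that came mostly from the Ly6Clow side. None (0) of the list rose at least 2-fold in Ly6Clow or fell at least 2-fold in Ly6Chigh cells. Pcna, the sliding clamp of the polymerases, shifted by -0.49 and E2f2 by -0.08, so not every replication gene moved. Ccnd1, the growth factor-responsive G1 cyclin, was the 1 gene of the list at least 2-fold lower in Ly6Clow cells at day 4, with 561 in Ly6Clow and 1281 in Ly6Chigh cells at day 4, against 1122 in Ly6Clow and 680.3 in Ly6Chigh cells at day 2.

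Mitotic genes rose in Ly6Chigh cells, while the median ratio still favoured Ly6Clow cells at day 4. Top2a, the topoisomerase that untangles replicated chromosomes, had 572 normalised counts in Ly6Clow and 358 in Ly6Chigh cells at day 4, against 498 in Ly6Clow and 50.7 in Ly6Chigh cells at day 2, a shift of -2.40. Kif11, the motor that separates the spindle poles, had 149 in Ly6Clow and 93.04 in Ly6Chigh cells at day 4, against 109.7 in Ly6Clow and 7.87 in Ly6Chigh cells at day 2, a shift of -2.11 that was -0.99 with 50 added. In both genes the Ly6Chigh value moved most while the Ly6Clow value moved by less than 2-fold. Mki67, the proliferation antigen Ki-67, had 1013 in Ly6Clow and 579 in Ly6Chigh cells at day 4, against 605 in Ly6Clow and 150.5 in Ly6Chigh cells at day 2, a shift of -1.14 that was -0.95 with 50 added. Over the list 36 of 39 genes rose at least 2-fold in Ly6Chigh cells and 7 in Ly6Clow cells. Cenpa, the centromeric histone, was the 1 gene of the list that shifted higher, by 1.06 (0.98 with 50 added and 0.96 with equal totals), with 613 in Ly6Clow and 681 in Ly6Chigh cells at day 4, against 343 in Ly6Clow and 805 in Ly6Chigh cells at day 2. At day 4 the summed level of the mitosis list was 7320 in Ly6Clow and 4149 in Ly6Chigh cells, against 4708 in Ly6Clow and 1620 in Ly6Chigh cells at day 2. With 50 added in place of 10, 3 of the 39 mitosis genes were shifted lower with a median of -0.33, and 18 of the 39 replication genes with a median of -0.87.

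**Figure D1:**
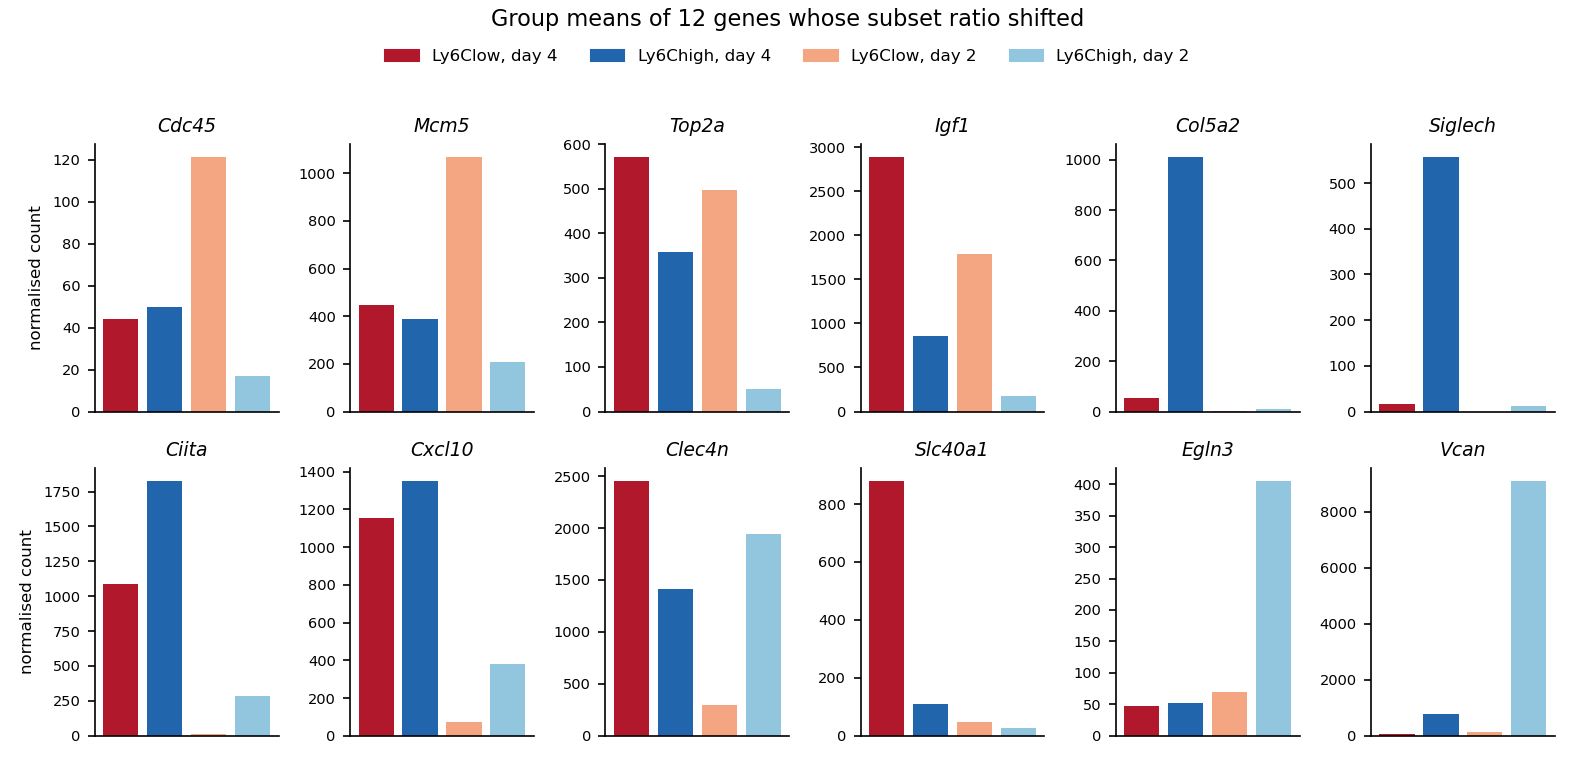
Bars give the normalised count, on a linear axis from 0 for each of 12 shifted genes, in Ly6Clow and Ly6Chigh cells at day 4 and then at day 2, as group means without error bars. Top2a stands at 358 in Ly6Chigh cells at day 4 against 50.7 in Ly6Chigh cells at day 2, while the Ly6Clow bars differ little.

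Genes of other cell types rose in Ly6Chigh cells in the same comparison. All 20 fibroblast and collagen genes were shifted lower, 8 of which reached the minimum in Ly6Chigh cells at day 4 alone, with a median of -2.58 and summed levels of 3144 in Ly6Clow and 35671 in Ly6Chigh cells at day 4, against 168 in Ly6Clow and 481 in Ly6Chigh cells at day 2. Postn, a matrix protein of activated fibroblasts, had 223 in Ly6Clow and 2444 in Ly6Chigh cells at day 4, against 2.63 in Ly6Clow and 4.62 in Ly6Chigh cells at day 2. Fewer cells of a type and less RNA per cell cannot be told apart in bulk samples. Their part in the cell cycle result was not tested.

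T and NK cell genes and part of the dendritic cell genes followed the same pattern in Ly6Chigh cells at day 4. Of 18 T and NK cell genes 10 reached 50 counts, all in Ly6Chigh cells at day 4, and summed levels of the list were 66 in Ly6Clow and 1673 in Ly6Chigh cells at day 4, against 25 in Ly6Clow and 86 in Ly6Chigh cells at day 2. These 10 genes passed the minimum only through the group in which they were high, so their lower shift is what the minimum selects. Cd8a, the T cell co-receptor, was listed at 0 in Ly6Clow and stood at 195 in Ly6Chigh cells at day 4, against 0 in Ly6Clow and 1.92 in Ly6Chigh cells at day 2. Spib, a transcription factor of plasmacytoid dendritic cells, had the lowest shift of all genes, -4.11, with 7.34 in Ly6Clow and 534 in Ly6Chigh cells at day 4, against 1.73 in Ly6Clow and 11.4 in Ly6Chigh cells at day 2. Siglech, a surface marker of the same cells, had 16.3 in Ly6Clow and 557 in Ly6Chigh cells at day 4, and was listed at 0 in Ly6Clow and stood at 11.2 in Ly6Chigh cells at day 2. Of 12 plasmacytoid genes 7 were shifted lower and of 10 classical dendritic genes 6. However, 6 of the 7 and 5 of the 6, Spib, Siglech and Flt3 among them, likewise passed the minimum through Ly6Chigh cells at day 4 alone. Summed levels of the plasmacytoid list were 13604 in Ly6Clow and 13390 in Ly6Chigh cells at day 4. At day 2 they were 7180 in Ly6Clow and 5808 in Ly6Chigh cells. Tcf4 and Clec10a of that list had shifts above 0, 0.24 and 0.14. Flt3, the growth factor receptor of dendritic cells, had 24.8 in Ly6Clow and 394 in Ly6Chigh cells at day 4, against 7.46 in Ly6Clow and 39.9 in Ly6Chigh cells at day 2. Endothelial genes were shifted lower in 3 of 7 cases, neutrophil genes in 1 of 6, and B cell genes in 2 of 3 with 1 higher. Of the genes shifted lower, the endothelial Tie1 and Plvap and the B cell gene Fcrla reached the minimum in Ly6Chigh cells at day 4 alone. Kit was the 1 of 12 eosinophil and mast cell genes to reach the minimum, in Ly6Chigh cells at day 4 alone, and was shifted lower. With 50 added none (0) of the 3 endothelial genes, the 2 lower B cell genes or Kit was past 2-fold. Skeletal muscle genes rose at least 2-fold between days in both populations, 9 of 10 in Ly6Clow and 9 of 10 in Ly6Chigh cells. Their shift was above 0 in 9 of 10 cases, and 1 was shifted higher (0 with 50 added). Summed levels were 2028 in Ly6Clow and 1165 in Ly6Chigh cells at day 4. At day 2 they were 383 in Ly6Clow and 312 in Ly6Chigh cells. The shifted gene, Tnnc2, reached the minimum in Ly6Clow cells at day 4 alone. No erythroid or platelet gene (0 of 9) reached the minimum. Leaving out all marker genes gave 261 genes shifted higher and 436 lower.

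The interferon-stimulated genes that shifted did so in the opposite direction to the cell cycle lists. Among type I interferon-stimulated genes 10 of 34 were shifted higher and none (0) lower, the median shift was 0.75, and 33 of 34 had a shift above 0. With 50 added 6 were shifted, and with the groups scaled to equal totals 5. The median ratio of the list was -0.49 at day 4 and -1.29 at day 2, so Ly6Chigh cells kept the higher level by a smaller margin. These genes rose at least 2-fold between days in 30 of 34 cases in Ly6Clow cells and in 10 of 34 in Ly6Chigh cells.

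Antiviral effectors and sensors led the list. Oas2, which makes the oligoadenylate that activates RNase L, had 1382 normalised counts in Ly6Clow and 2174 in Ly6Chigh cells at day 4, against 238 in Ly6Clow and 1137 in Ly6Chigh cells at day 2, a shift of 1.56. Zbp1, a sensor of Z-form nucleic acid, had 1902 in Ly6Clow and 2594 in Ly6Chigh cells at day 4, against 438 in Ly6Clow and 1732 in Ly6Chigh cells at day 2, a shift of 1.51. Ly6Clow values were below Ly6Chigh values on both days, and the gap was narrower at day 4. Oas3, whose promoter is printed above, shifted by 1.14. Irf7, the factor that amplifies interferon output, had 9264 in Ly6Clow and 14015 in Ly6Chigh cells at day 4, against 1169 in Ly6Clow and 3720.0 in Ly6Chigh cells at day 2, a shift of 1.06 that was 0.97 with equal totals. Bst2, a viral tether, was the exception with a shift of -0.34.

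Among interferon-gamma GTPases and chemokines 5 of 19 were shifted higher and none (0) lower, with a median shift of 0.57, and with 50 added 3 were. Cxcl10, the ligand of CXCR3 on T cells, had 1153 in Ly6Clow and 1350.0 in Ly6Chigh cells at day 4, against 71.1 in Ly6Clow and 382 in Ly6Chigh cells at day 2, a shift of 2.05. The guanylate-binding protein Gbp2 shifted by 1.15, which was 0.94 with 50 added. All 19 genes rose at least 2-fold in Ly6Clow cells, and 18 did in Ly6Chigh cells.

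Ciita, the transactivator that switches on MHC class II genes, had one of the 12 highest shifts, 2.92. It had 1091 normalised counts in Ly6Clow and 1826 in Ly6Chigh cells at day 4, against 13.6 in Ly6Clow and 287 in Ly6Chigh cells at day 2. Of 11 class II presentation genes 10 rose at least 2-fold in Ly6Clow cells and 11 in Ly6Chigh cells, and the chains of the class II molecules shifted less than Ciita. H2-Aa, the alpha chain of the I-A molecule, had 23426 in Ly6Clow and 67775 in Ly6Chigh cells at day 4, against 1542 in Ly6Clow and 9204 in Ly6Chigh cells at day 2, a shift of 1.04 that was 0.94 with the groups scaled to equal totals, and H2-Ab1, Cd74 and H2-Eb1 had shifts of 0.95, 0.98 and 0.57. Of 11 class II genes 2 were shifted higher and 1 lower, H2-Oa, which modulates peptide loading and was no longer past 2-fold with 1 or with 50 added. H2-Oa reached the minimum in Ly6Chigh cells at day 4 alone. The subset ratio of MHC class I genes moved less, with none (0) of 22 shifted and a median of 0.10, while 12 of the 22 rose at least 2-fold between days in Ly6Clow cells and 11 in Ly6Chigh cells. The T cell co-stimulator Cd86 had 1595 in Ly6Clow and 2083 in Ly6Chigh cells at day 4, against 422 in Ly6Clow and 1929.9 in Ly6Chigh cells at day 2, so its shift of 1.78 came from the Ly6Clow side.

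**Figure D2:**
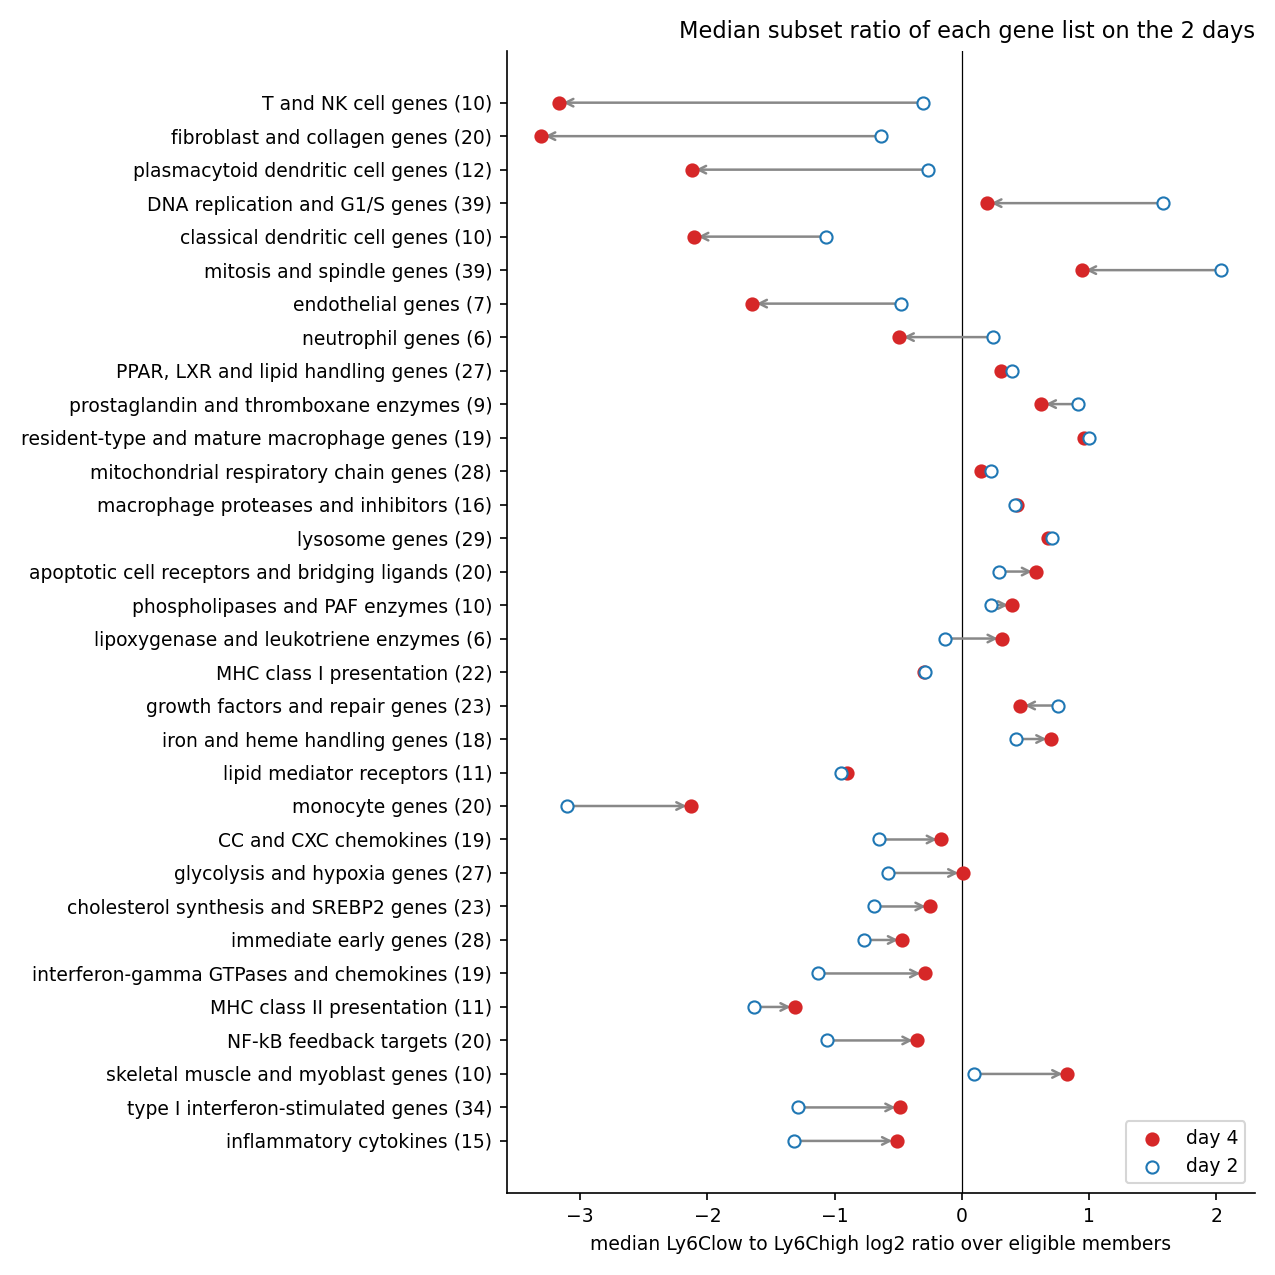
Median subset ratio of each gene list at day 4 and at day 2, in log2 units, with an arrow toward day 4 where the medians differ by more than 0.15. Numbers in parentheses count the genes behind each median. The DNA replication and mitosis lists stand at 0.20 and 0.94 at day 4, against 1.58 and 2.04 at day 2, and both interferon lists lie nearer to 0 at day 4.

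Of the inflammatory cytokines 4 were at least 2-fold lower in Ly6Clow than in Ly6Chigh cells at day 4, against 8 at day 2. Of 15 genes 6 were shifted higher and 2 lower, with a median shift of 0.77, and 5 of the 20 listed genes did not reach the minimum. Il1b, the pyrogenic cytokine processed by inflammasomes, had 3285 in Ly6Clow and 11472 in Ly6Chigh cells at day 4, against 886 in Ly6Clow and 10235 in Ly6Chigh cells at day 2, a shift of 1.71. The anti-inflammatory cytokine Il10 had 293 in Ly6Clow and 251 in Ly6Chigh cells at day 4, against 135 in Ly6Clow and 423 in Ly6Chigh cells at day 2, a shift of 1.80. A cytokine known for opposite action thus shifted in the same direction, while Il1b stayed lower in Ly6Clow than in Ly6Chigh cells at day 4, at a log2 ratio of -1.80, and Il10 had a ratio of 0.22. Il18, another inflammasome product, shifted by 1.63 and the IL-6 family cytokine Osm by 1.18. Il6 and Ptx3 were the genes shifted lower, at 5.36 and 1.65 in Ly6Clow against 53.8 and 73.0 in Ly6Chigh cells at day 4. Both reached the minimum in that group alone, Il6 shifted by -1.48 (-0.75 with 50 added), and Ptx3 was listed at 0 in Ly6Clow cells at day 2. Tnf shifted by 0.40 and was not called.

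Among chemokines 4 of 19 were shifted higher and 3 lower. Ccl24, the eotaxin that attracts eosinophils, had 111 in Ly6Clow and 64.6 in Ly6Chigh cells at day 4, against 56.8 in Ly6Clow and 172 in Ly6Chigh cells at day 2, a shift of 2.14. The neutrophil attractant Cxcl2 shifted by 1.27 through a fall in Ly6Chigh cells to 1369 at day 4, against 5135 in Ly6Chigh cells at day 2. Cxcl14 and Cxcl12 were among the genes shifted lower, by -2.31 and -1.76, and Cxcl12, a chemokine that stromal cells make, rose with the fibroblast genes in Ly6Chigh cells, to 189 at day 4 against 20.5 at day 2. Cxcl12 and Ccl22, the remaining gene shifted lower, reached the minimum in Ly6Chigh cells at day 4 alone. The minimum selects a lower shift for such genes. Of 20 NF-kB feedback genes 2 were shifted higher, with a median of 0.61, and of 28 immediate early genes 1 was, with a median of 0.44. The share over all genes was 2.18% higher and 4.03% lower.

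Myeloid C-type lectin receptors moved in both directions, with 7 of 18 shifted higher and 4 lower, 3 of the 4 through genes that reached the minimum in Ly6Chigh cells at day 4 alone. Of TREM, PILR and SIRP receptors 7 of 13 were shifted higher and none (0) lower. Both lists were chosen after their values were seen. Clec4n, the C-type lectin dectin-2 that binds fungal mannans, shifted by 3.46, with 2453 normalised counts in Ly6Clow and 1409 in Ly6Chigh cells at day 4, against 298 in Ly6Clow and 1943 in Ly6Chigh cells at day 2. The order of the populations was thus turned round, with Ly6Clow cells higher at day 4 and lower at day 2. Clec7a, the glucan receptor dectin-1, had 7736 in Ly6Clow and 9342 in Ly6Chigh cells at day 4, against 893 in Ly6Clow and 4919 in Ly6Chigh cells at day 2, a shift of 2.18. Itgal, the alpha chain of the integrin LFA-1, had 2757 in Ly6Clow and 3116 in Ly6Chigh cells at day 4, against 351 in Ly6Clow and 2555 in Ly6Chigh cells at day 2, a shift of 2.65. In each of the 3 genes the Ly6Clow value rose and the Ly6Chigh value changed by less than 2-fold. The receptor genes lie in clusters: Clec4a3, Clec4a4, Clec4b1 and Clec4a2 are neighbours among the analysed genes on chr6:122952515-123143999 and all shifted higher (Clec4a3 by 1.06, or 0.96 with equal totals), as did the 3 neighbours Pilra, Pilrb1 and Pilrb2, paired immunoglobulin-like receptors, and the 4 neighbours Sirpb1a, Sirpb1b, Sirpb1c and Gm5150. The 3 neighbours Klrd1, Klrk1 and Klra17, lectin-like receptor genes, shifted lower. Klrd1 and Klra17 reached the minimum in Ly6Chigh cells at day 4 alone, and the minimum selects a lower shift for such genes. Klra17 was listed at 0 in Ly6Clow cells at day 2, and with 1 added it stood at 0.56 and Klrk1 was not past 2-fold. Clustered genes of this kind are close paralogs, and reads may be split among them. Of 14 chaperone genes 3 were shifted higher and none (0) lower, with a median of -0.13 and 8 of 14 below 0. Hspa1b, Hspa1a and Hspa1l, HSP70 chaperone genes next to one another on chromosome 17, shifted by 1.41, 1.26 and 1.17, with Hspa1b at 10413 in Ly6Clow and 19379 in Ly6Chigh cells at day 4, against 3487 in Ly6Clow and 17248 in Ly6Chigh cells at day 2.

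Monocyte genes did not move as 1 block. Of 20 such genes 7 were shifted higher and 3 lower, with a median shift of 0.28, and 18 were at least 2-fold lower in Ly6Clow than in Ly6Chigh cells at day 4, 17 of them on both days. Vcan, the proteoglycan versican, had 60.4 in Ly6Clow and 787 in Ly6Chigh cells at day 4, against 126 in Ly6Clow and 9089.9 in Ly6Chigh cells at day 2, a shift of 2.56. Emr4, an adhesion receptor of the F4/80 family, shifted by 2.82 in the other manner, with 331 in Ly6Clow and 807 in Ly6Chigh cells at day 4, against 8.37 in Ly6Clow and 301 in Ly6Chigh cells at day 2. The ratio of Vcan moved because Ly6Chigh cells fell, and that of Emr4 because Ly6Clow cells rose further. The genes of the sort marker Ly6C, Ly6c2 and Ly6c1, shifted by -2.18 and -1.68, with Ly6c2 at 93.5 in Ly6Clow and 11758 in Ly6Chigh cells at day 4, against 139 in Ly6Clow and 3717 in Ly6Chigh cells at day 2. The populations were further apart in this sort marker at day 4, while fewer genes in all were called between them. Emr1, which encodes the other sort marker F4/80, shifted by -0.27, and the neutrophil marker Ly6g was listed at 0 in all 4 groups.

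Mature macrophage and growth factor genes had medians near 0 with single genes that moved. Of 19 mature macrophage genes 2 were shifted higher, with a median of -0.06, against 2.18% higher over all genes. Cd163, the haemoglobin scavenger receptor, had 489.5 in Ly6Clow and 95.6 in Ly6Chigh cells at day 4, against 377 in Ly6Clow and 256 in Ly6Chigh cells at day 2, a shift of 1.70. Mrc1, the mannose receptor, had 9991 in Ly6Clow and 5023 in Ly6Chigh cells at day 4, against 8695 in Ly6Clow and 12137 in Ly6Chigh cells at day 2, a shift of 1.47. Both fell at least 2-fold in Ly6Chigh cells. Of 23 growth factor and repair genes 4 were shifted higher and 3 lower, of which Ogn reached the minimum in Ly6Chigh cells at day 4 alone. The share over all genes shifted lower was 4.03%. Igf1, which promotes muscle fibre growth, had 2892 in Ly6Clow and 859.8 in Ly6Chigh cells at day 4, against 1785 in Ly6Clow and 177 in Ly6Chigh cells at day 2, so Ly6Clow cells led on both days and the ratio fell by 1.53. Npl and Serpinb6a had log2 ratios of 3.11 and 2.85 at day 4 and 3.30 and 2.92 at day 2, an example of genes whose separation stayed.

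Iron and lipid genes moved in both directions. Slc40a1, the iron exporter ferroportin, had 879.6 in Ly6Clow and 111 in Ly6Chigh cells at day 4, against 47.9 in Ly6Clow and 27.9 in Ly6Chigh cells at day 2, a shift of 2.26 that opened a difference. Spic, a factor of iron-recycling macrophages, had 261 in Ly6Clow and 174 in Ly6Chigh cells at day 4, against 16.1 in Ly6Clow and 66.0 in Ly6Chigh cells at day 2, a shift of 2.09. The transferrin receptor Tfrc, which takes iron in, shifted by -1.13, with 723 in Ly6Clow and 443 in Ly6Chigh cells at day 4, against 1591 in Ly6Clow and 444 in Ly6Chigh cells at day 2. Over the iron list 4 of 18 genes were shifted higher and 2 lower, of which Steap4 reached the minimum in Ly6Chigh cells at day 4 alone. In the PPAR, LXR and lipid list 3 of 27 were shifted higher and 4 lower, among them Lpl, the lipoprotein lipase, at 8904 in Ly6Clow and 6040.2 in Ly6Chigh cells at day 4, against 17549.6 in Ly6Clow and 3035 in Ly6Chigh cells at day 2, a shift of -1.97. Lysosome genes, with 1 of 29 shifted lower and a median of -0.04, and respiratory chain genes, with none (0) of 28 shifted and a median of -0.06, kept their ratios. Apoptotic cell receptors gave 2 of 20 higher, Stab2 and Axl, and none (0) lower, and proteases 2 of 16 lower and none (0) higher. The share over all genes was 2.18% higher and 4.03% lower. Stab2 reached the minimum in Ly6Clow cells at day 4 alone, and the protease Adamts1 in Ly6Chigh cells at day 4 alone. The minimum selects a higher shift for genes like Stab2 and a lower one for genes like Adamts1. With 50 added Stab2 and Axl were at 0.92 and 0.94 and the protease Mmp2 at -0.98, none past 2-fold, while Stab2 was at 0.36 with 1 added and Axl at 0.91 with equal totals.

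**Figure D3:**
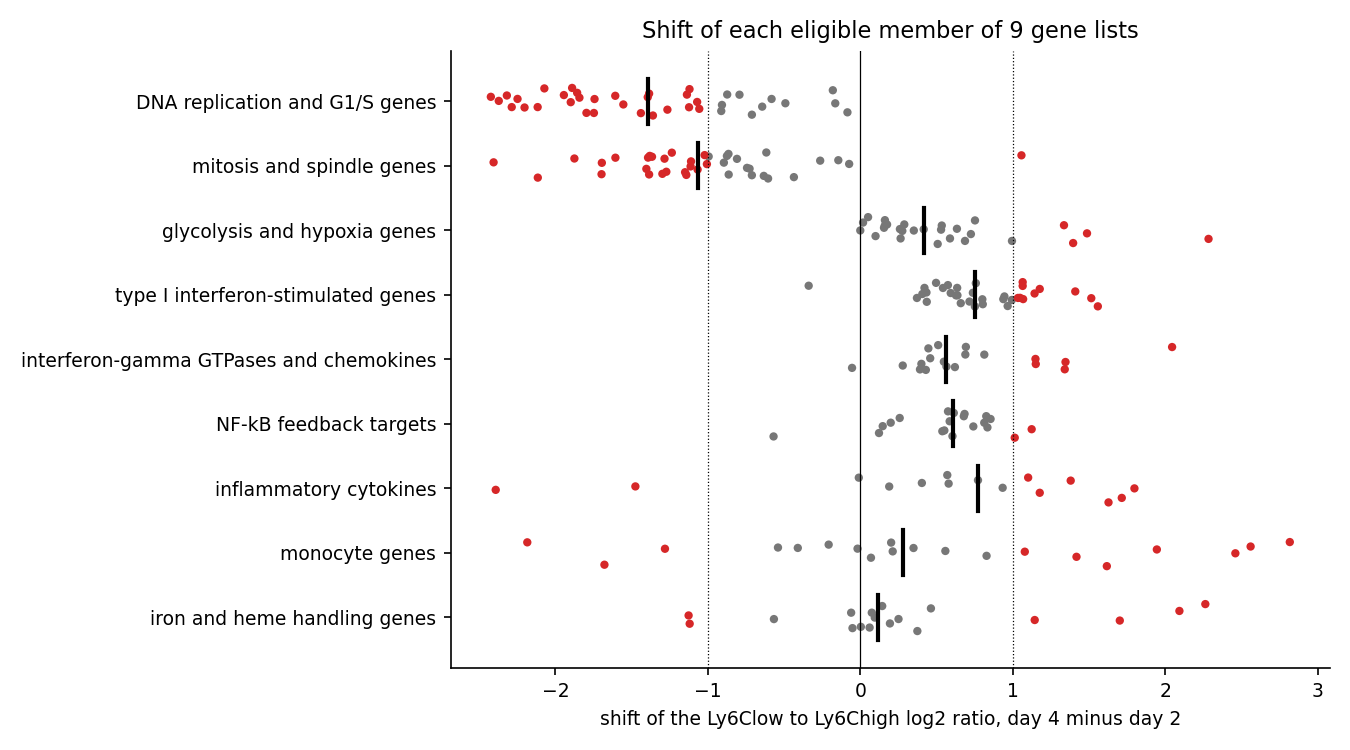
Log2 shift of each member of 9 gene lists, 1 point per gene that reached 50 normalised counts, with dotted lines at 1 and -1, red points past them and a bar at the median of each list. DNA replication genes lie below 0 throughout, and interferon-stimulated genes lie above 0 except Bst2. The lowest replication gene, Cdc45 at -2.42, reached the minimum in Ly6Clow cells at day 2 alone.

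Glycolysis and hypoxia genes fell at least 2-fold between days in 5 of 27 cases in Ly6Clow cells and in 18 of 27 in Ly6Chigh cells. Values at day 4 were lower than at day 2 in 26 of 27 genes in Ly6Clow cells and in 27 in Ly6Chigh cells, the exception being Bnip3 with 177 in Ly6Clow cells at day 4 against 151 in Ly6Clow cells at day 2. In the list 4 genes were shifted higher and none (0) lower, with a median shift of 0.42, against 2.18% higher over all genes. Of the 4, Ankrd37 reached the minimum in Ly6Chigh cells at day 2 alone, and the minimum selects a higher shift for such genes. Egln3, an oxygen-sensing prolyl hydroxylase, had 46.9 in Ly6Clow and 51.4 in Ly6Chigh cells at day 4, against 69.0 in Ly6Clow and 405 in Ly6Chigh cells at day 2, a shift of 2.28. Mxi1, a MYC antagonist, had 1357 in Ly6Clow and 1136 in Ly6Chigh cells at day 4, against 1496 in Ly6Clow and 3530.1 in Ly6Chigh cells at day 2, a shift of 1.49. Enzymes of the pathway itself shifted less, with the pyruvate kinase Pkm at 0.16 and Gapdh at 0.29. Cholesterol synthesis genes had 1 of 23 shifted higher, Insig1 by 1.02 (0.93 with equal totals and 0.97 with 50 added), and a median of 0.42.

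Lipid mediator genes bear on the series because it also treats cultured macrophages with resolvin D2. Over 4 lists of such genes 6 of 36 (16.7%) were shifted higher and none (0) lower, against 2.18% higher over all genes, and 3 were past 2-fold with 50 added. Ptgs2, the inducible cyclooxygenase, had 1531 in Ly6Clow and 2415 in Ly6Chigh cells at day 4, against 1918 in Ly6Clow and 6176 in Ly6Chigh cells at day 2, a shift of 1.03 that was 0.93 with equal totals. Ptgs1, the constitutive enzyme, shifted by 0.52, and the 5-lipoxygenase Alox5 by -0.14. Gpr18, a receptor for resolvin D2, had 30.8 in Ly6Clow and 139 in Ly6Chigh cells at day 4, against 1.45 in Ly6Clow and 12.1 in Ly6Chigh cells at day 2, a shift of -0.92. The sign of the Gpr18 value rests on the added count, since it was 0.28 with 1 added, and with equal totals it was -1.01. Alox15 stayed under 50 normalised counts in all 4 groups. The formyl peptide receptor Fpr2 and the lysolipid and proton receptor Gpr132 shifted by 1.42 and 1.06, as 2 of 11 lipid mediator receptors, and neither was past 2-fold with 50 added, and the platelet-activating factor enzymes Lpcat2 and Pla2g7 by 1.15 each, as 2 of 10 phospholipase genes. Of 9 prostaglandin enzymes 1 was shifted higher, and of 6 lipoxygenase pathway genes 1 was, Ggt5, which was not past 2-fold with 50 added.

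Retnlg and Serpinb9 were the 2 genes called in opposite directions on the 2 days. Retnlg, a resistin-like protein of neutrophils, had 30.4 in Ly6Clow and 82.6 in Ly6Chigh cells at day 4, against 94.2 in Ly6Clow and 22.5 in Ly6Chigh cells at day 2. Serpinb9, an inhibitor of granzyme B, had 85.6 in Ly6Clow and 228 in Ly6Chigh cells at day 4, against 79.1 in Ly6Clow and 33.4 in Ly6Chigh cells at day 2. The pattern of Serpinb9 lay in Ly6Chigh cells, where T and NK genes were also higher at day 4, and a relation between these was not tested.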

How the data were processed

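Per the labels' protocols, HiSeq reads came from poly-A libraries made with an Illumina TruSeq kit that, as described, marks no strand. TopHat2 2.0.7, DESeq and mm10 are named in the submitters' processing notes. The gene annotation they used is not stated here. The deposited table gives log2 normalised counts, which the authors averaged over the samples of a group, with values under 1 normalised count listed at 0. It has 5 columns of values, none (0) from outside the series. Cells holding a date (2) were taken as missing. Summed normalised counts were 11.9 to 12.8 M per group. Steps among low values give 0.736 to 1.17 normalised counts per read, so that 50 normalised counts correspond to 42.6 to 68.0 reads per library, which covers counting error only. Samples were grouped by their labels, which do not say that they came from separate animals.

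Log2 values were turned back to counts, 10 was added, and ratios, changes between days and shifts were taken without a test, since 1 mean per group leaves no replicate spread. Folds are on this log2(count + 10) scale, which understates changes of low genes, and for a gene listed at 0 in a group a shift rests on the added count. The calculation was tested on simulated data that held counting error only, with changes planted in Ly6Clow cells at day 4. That test says nothing about the spread between samples. GENCODE M21 (GRCm38/mm10) holds 36308 (95.3%) of the 38087 identifiers and gave their positions. Values of overlapping or antisense genes and close paralogs are uncertain. The members and the 45 gene lists were chosen with earlier results of these data known, and 10 of the lists after the shifts were seen. Named genes are the 12 with the largest shift each way, up to 4 shifted genes per list (2 of the highest level where none shifted), 3 on each side of each threshold, opposite calls, and sort marker and lipid mediator genes. Others were chosen after their values were seen, among them Mcm2, Pcna, Ccnd1, Mki67, Cenpa, Irf7, Cd86, Clec7a, Npl, Serpinb6a, Spp1, Tfrc and the HSP70 genes. Alternatives were the added count, the minimum, scaling, the call threshold and leaving out markers, genes at 0, the Ugt1a family and shared symbols. Python 3.11.15, numpy 2.4.6, pandas 2.3.3 and matplotlib 3.10.9 were used.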

Additional observations from a re-analysis of the deposited data

How the results depend on the processing

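Against 749 shifted genes (263 higher, 486 lower), 383 were counted with 50 added (153 higher, 230 lower), 358 at a minimum of 200 normalised counts (169 lower), and 278 at 3-fold (64 higher, 214 lower), while no minimum gave 765 lower. The share of shifted genes that were higher was 35.1%, and it was 52.8% at the minimum of 200 and 23.02% at 3-fold. Rescaling the groups to equal totals moved the median of all genes to -0.09 and gave 203 higher and 557 lower. With 1 added Klra17 turned to 0.56 and Gpr18, which was not past 2-fold, to 0.28, and at the minimum of 200 the B cell median turned to 0.19. The cause was not tested. Counts under the other settings, the shares by population (68.6 to 78.2% for Ly6Chigh cells alone, 48.4 to 57.8% for Ly6Clow cells alone) and the number of lists with a median of at least 0.5 in size (13 to 16, against 15) stayed within 1.5 times. With 50 added 32 of 127 named genes were no longer past 2-fold, and with equal totals 10, among them Ptgs2, H2-Aa, Insig1 and Gpr132. No paired analysis was possible because the deposited columns are group means, and leaving out single samples could not be run for the same reason. Low counts limit the genes near 10, and no replicate spread is available for any shift.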

Other observations

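Genes of the Ugt1a locus, which encodes glucuronosyltransferases that conjugate bilirubin and drugs, had 6 of the 12 highest shifts. All 6 reached the minimum in Ly6Chigh cells at day 2 alone, and the minimum selects a higher shift for such genes. Their values in that group were nearly equal, at 115 to 118, and are not 6 separate observations. Ugt1a9 had 3.43 normalised counts in Ly6Clow and 3.41 in Ly6Chigh cells at day 4, and at day 2 it was listed at 0 in Ly6Clow and stood at 116 in Ly6Chigh cells. Ugt1a10 was listed at 0 in Ly6Clow and Ly6Chigh cells at day 4 and in Ly6Clow cells at day 2, and stood at 115 in Ly6Chigh cells at day 2. The members share exons at their 3′ end, so reads of those exons cannot be assigned to 1 member. Ugt1a7c, which shares them, had 1739.8 in Ly6Clow and 1485 in Ly6Chigh cells at day 4, against 1909 in Ly6Clow and 841 in Ly6Chigh cells at day 2. Leaving the family out gave 256 genes shifted higher. Values of single members are uncertain.

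Complement genes, a list chosen after the values were seen, gave 4 of 18 shifted higher and 2 lower, against 2.18% and 4.03% over all genes. C3, the central component, had 2263 in Ly6Clow and 5032 in Ly6Chigh cells at day 4, against 588 in Ly6Clow and 4710.5 in Ly6Chigh cells at day 2. Cfp, properdin, which stabilises the alternative pathway convertase, had 4355 in Ly6Clow and 2448 in Ly6Chigh cells at day 4, against 5317 in Ly6Clow and 9270.0 in Ly6Chigh cells at day 2. The shift of C3 was 1.83 and came from a rise in Ly6Clow cells, and that of Cfp was 1.63 and came from a fall in Ly6Chigh cells.

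Hes1, a transcriptional repressor downstream of Notch, had 356 in Ly6Clow and 323 in Ly6Chigh cells at day 4, against 30.9 in Ly6Clow and 142 in Ly6Chigh cells at day 2, a shift of 2.04. The nucleic acid receptor Tlr9 had 2109.7 in Ly6Clow and 3058 in Ly6Chigh cells at day 4, against 341 in Ly6Clow and 1437 in Ly6Chigh cells at day 2, a shift of 1.51. Spp1, the secreted matrix protein osteopontin, had 43292 in Ly6Clow and 17332 in Ly6Chigh cells at day 4, against 183020.0 in Ly6Clow and 29849 in Ly6Chigh cells at day 2, a shift of -1.30.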
